A study of Mus musculus with 4 samples.

Results

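The genes of the mouse major histocompatibility complex (MHC) and the machinery that loads peptides onto MHC molecules were measured in cells sorted from gliomas induced with PDGF-B, a growth factor that drives glial progenitors. A gene was included where a probe set on the array had a single gene symbol that began with H2-, the mouse MHC prefix, or was B2m, Tap1, Tap2, Tapbp, Erap1, Calr, Canx, Pdia3, Psmb8, Psmb9, Psmb10, Psme1, Psme2, Nlrc5, Ciita or Cd74. This gave 45 of 19937 measured genes, of which 29 carried an H2- symbol and 16 came from the list of other genes. The rule used no measured difference between tumours. For a gene with several probe sets, the set with the highest mean over all arrays stood for it, and 44 of the 45 had 1 probe set.

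All 4 samples came from C57/Bl6 mice in which a retrovirus carrying PDGF-B with EGFP, a green fluorescent marker, was injected at embryonic day 14 and glioma was left to develop. There was no sample of normal brain or of unsorted tumour, and no age was given. In the early-onset group, labelled low-grade, each of 2 samples combined 2 tumours. In the late-onset group, labelled high-grade, each of 2 samples was a single tumour. Cells were sorted on EGFP, so the gate selected on green fluorescence and not on a cell type. Whether every sorted cell carried the transgene was not tested. The samples are called pool 1, pool 2, tumour 1 and tumour 2. The labels call them biological replicates, and with n = 2 per group an SD rests on 2 arrays. Values are log2 probe set signals, and a difference is late minus early, so a negative difference means a lower signal in late-onset cells.

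MHC class I molecules carry peptides from the cell's own cytosol to the surface, where CD8 T cells read them. The proteasome makes these peptides, the TAP transporter moves them into the endoplasmic reticulum, ERAP1 trims them, and tapasin with calreticulin and ERp57 holds an empty class I molecule until a peptide binds. The heavy chain needs beta-2 microglobulin as its light chain to reach the surface. Class II molecules present peptides from endosomes to CD4 T cells, and they are loaded with the help of the invariant chain and the H2-DM and H2-DO proteins. Class II is mainly a property of professional antigen-presenting cells, and in the brain microglia and infiltrating macrophages can express it. Interferon gamma induces both pathways, through NLRC5 for class I and CIITA for class II, which act on promoters already bound by RFX and NF-Y.

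The promoters of 34 of the 45 genes were matched by symbol in RefSeq (GRCm38.p6), and 5 are printed to show promoters with and without matches to the motifs searched. Each is the 250 bases before the annotated start, read 5′ to 3′ on the gene's strand, with motif matches in capitals.
B2m, chr2:122147437-122147686, plus strand: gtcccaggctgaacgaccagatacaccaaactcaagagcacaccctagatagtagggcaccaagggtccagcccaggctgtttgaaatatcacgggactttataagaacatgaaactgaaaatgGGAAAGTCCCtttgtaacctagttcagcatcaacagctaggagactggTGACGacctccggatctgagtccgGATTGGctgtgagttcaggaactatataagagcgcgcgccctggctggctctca
H2-Aa, chr17:34287824-34288073, minus strand: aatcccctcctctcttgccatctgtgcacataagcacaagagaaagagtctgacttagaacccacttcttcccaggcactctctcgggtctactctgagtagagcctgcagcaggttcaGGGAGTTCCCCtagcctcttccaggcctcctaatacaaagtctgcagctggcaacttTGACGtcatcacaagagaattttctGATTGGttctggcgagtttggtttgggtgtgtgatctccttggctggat
H2-Ob, chr17:34238655-34238904, plus strand: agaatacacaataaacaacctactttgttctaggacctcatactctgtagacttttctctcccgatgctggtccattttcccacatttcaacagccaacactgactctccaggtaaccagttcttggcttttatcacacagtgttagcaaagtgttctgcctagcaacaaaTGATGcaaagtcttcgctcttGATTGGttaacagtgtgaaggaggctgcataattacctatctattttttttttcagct
Tap1, chr17:34187306-34187555, plus strand: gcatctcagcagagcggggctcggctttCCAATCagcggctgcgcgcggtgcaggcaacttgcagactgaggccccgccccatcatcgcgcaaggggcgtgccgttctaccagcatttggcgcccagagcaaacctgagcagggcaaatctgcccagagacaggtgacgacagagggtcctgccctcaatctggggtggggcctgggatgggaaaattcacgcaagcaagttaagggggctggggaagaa
Tapbp, chr17:33919228-33919477, plus strand: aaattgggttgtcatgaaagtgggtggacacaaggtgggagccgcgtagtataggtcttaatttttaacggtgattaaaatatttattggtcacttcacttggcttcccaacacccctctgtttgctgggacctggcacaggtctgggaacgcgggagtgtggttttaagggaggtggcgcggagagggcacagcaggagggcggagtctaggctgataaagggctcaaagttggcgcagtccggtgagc
The capitals in B2m, H2-Aa and H2-Ob mark GATTGG, the inverted CCAAT element that NF-Y recognises, and TGANG a short distance before it, as in the X and Y boxes of MHC promoters. GATTGG began 54 bases before the start in B2m, 49 in H2-Aa and 58 in H2-Ob, and the gap between the elements was 19, 20 and 16 bases. In B2m and H2-Aa the capitals also mark an NF-kB consensus match. In Tap1 they mark CCAATC, which is GATTGG on the other strand, 222 bases before the start, in the stretch that Tap1 shares with Psmb9 on the opposite strand. Tapbp held no match to any motif searched, though it contains ATTGG, the inverted CCAAT without the leading G, which was not searched alone.

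Motifs were chosen after the sequences had been seen and were searched on both strands. GATTGG was found in 14.6% of 32851 promoters of this length and in 22 of 34 promoters of the genes studied here, including 6 of 6 for class II chains and class II loading. TGANG placed 10 to 25 bases before GATTGG, a motif that contains the first, was found in 1.09% of promoters and in 9 of 34 (B2m, H2-Aa, H2-Eb1, H2-Eb2, H2-Ob and 4 H2-M10 genes, which are near copies of each other). The interferon-response motif GAANNGAAA was found in 6.31% of promoters and in 4 of 34 (H2-M2, H2-M3, H2-Q4 and H2-Q10). The STAT motif TTCNNNGAA was found in 7.02% and in 3 of 34 (H2-M3, H2-M11 and Psmb8). The NF-kB consensus was found in 7.25% and in 6 of 34. A match is a description of the letters and not a measured site. Of the 4 matched promoters of genes that fell in late-onset cells, 2 held GATTGG (H2-DMa and H2-Ob) and 2 did not (Tapbp and Erap1).

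Over all 19937 genes, 1618 fell and 1313 rose in late-onset cells (limma, Benjamini-Hochberg adjusted p below 0.05), and the median difference was -0.01. Without pool 1 the counts were 613 and 330, and without pool 2 they were 559 and 291. Subtracting the median over genes from each array, a scaling added after the data had been seen, moved the median difference of all genes up by 0.16 and gave 1210 lower and 2839 higher. Markers of glial progenitors were measured in all samples, with values from 9.74 to 13.71 over 7 measured genes such as Pdgfra, Olig2 and Sox10. Markers of microglia and macrophages were measured as well, and 22 of 23 fell (median difference -3.77). The sum of their linear signals was 52826.5 and 45176.2 in the pools against 2973.72 in tumour 1 and 4705.03 in tumour 2. Their lowest value was 4.65, for Gpr34 in tumour 2, which is below the lower quartile of the gene means (5.52). The lowest value of any probe set was 2.17, so a value above 0 does not show expression. The part of these cells in the differences described here was not tested. In such bulk samples, fewer cells of a type and less RNA per cell cannot be told apart.

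Of the 45 genes, 8 fell in late-onset cells and 0 rose, against a background of 8.12% of all genes that fell and 6.59% that rose. The 8 were H2-K2, Cd74, Tapbp, Tap2, H2-Ob, H2-T24, Erap1 and H2-DMa. The differences ran from -1.79 to 0.34 with a median of -0.23, and 36 were negative. In 25 genes both tumours lay below both pools, against a background of 30.4%, in 3 both lay above, against 28.5%, and in 17 the groups overlapped. Relative to the upward shift of all genes with the median over genes subtracted, the median of the 45 was -0.07 where that of all genes was 0.15, and the counts were 7 lower and 1 higher. The higher gene was H2-Eb2 (adjusted p = 0.0394).

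A mean signal above 5.52, the lower quartile of all genes, was found for 33 of the 45, and these held all 8 that fell. The other 12 had differences from -0.30 to 0.27, and none was called. Over all genes, 1543 of 14952 above that level and 75 of 4985 at or below it were called lower. Without pool 1 or without pool 2, 2 genes were called in place of 8. Tap2 and H2-K2 were called under all 13 settings run.

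**Figure D1:**
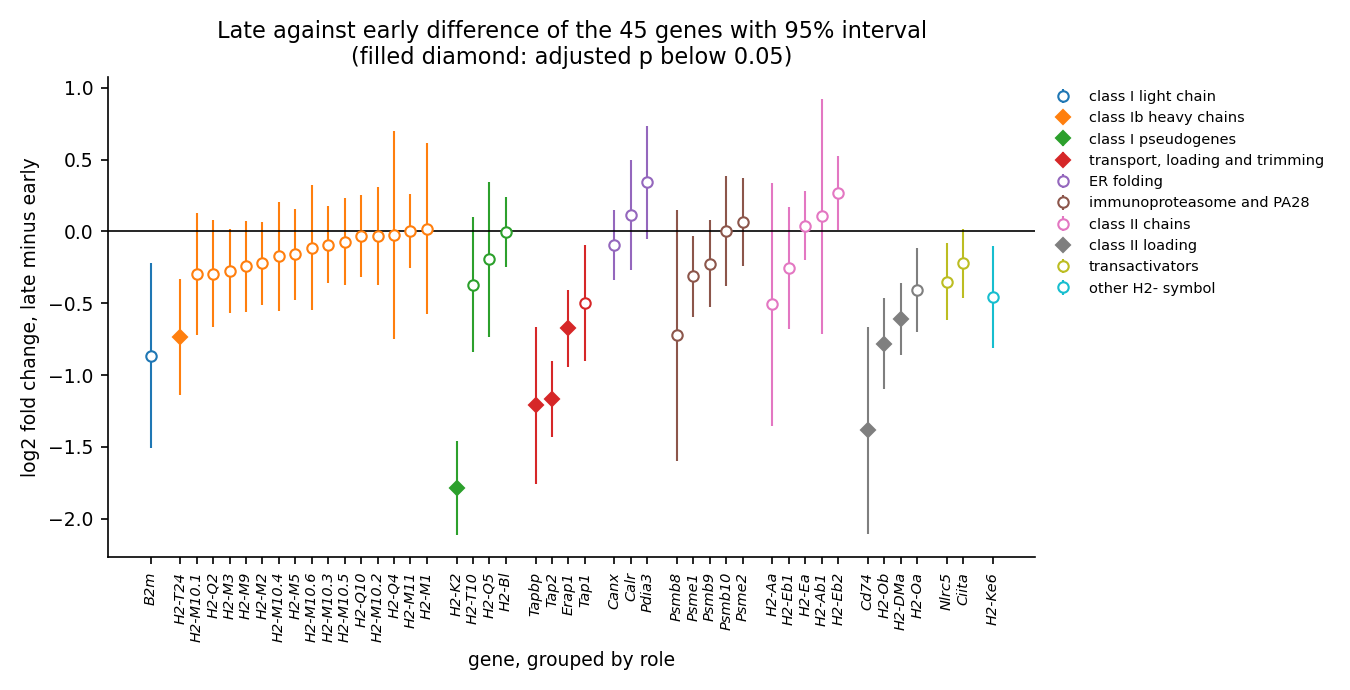
Log2 difference, late minus early, for each of the 45 genes, grouped by role, with the 95% interval of the limma fit; filled diamonds passed the adjusted p of 0.05. The called genes lie between -1.79 for H2-K2 and -0.61 for H2-DMa, and the intervals of the class II chains H2-Aa, H2-Ab1, H2-Eb1 and H2-Ea include 0.

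B2m, the light chain of every class I molecule, stood at 12.78 and 12.70 in the pools and at 11.50 and 12.26 in the tumours. Both tumours lay below both pools, tumour 1 further than tumour 2. The difference of -0.86 (95% interval -1.51 to -0.22) missed the threshold (adjusted p = 0.0866). Without tumour 2 it was -1.25 (adjusted p = 0.00999), and without tumour 1 it was -0.48 (adjusted p = 0.0733).

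The classical class I heavy chain genes H2-K1 and H2-D1 were not analysed here, since each shares its probe sets with other genes. Of 8 probe sets assigned to several H2- genes, 7 had negative differences and 5 had both tumours below both pools. Their differences ran from -1.69 to 0.16 with a median of -0.67, and no gene is named from them. H2-K2, a transcribed pseudogene close in sequence to H2-K1, had a probe set of its own and showed the lowest difference of all 45 genes. It stood at 7.25 and 6.99 in the pools and at 5.27 and 5.39 in the tumours. The groups were far apart for the spread within them, 7.12 ± 0.19 against 5.33 ± 0.08 (mean ± SD). The difference was -1.79 (SE 0.13, adjusted p = 0.00307), a 3.46-fold lower signal in late-onset cells. How much of this signal comes from similar class I transcripts is not known.

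The other 3 class I pseudogenes were not called. H2-T10 stood at 9.69 and 10.01 in the pools and at 9.28 and 9.68 in the tumours, with a difference of -0.37 (95% interval -0.84 to 0.10). H2-Q5 overlapped between groups, with 7.17 in tumour 2 against 7.19 and 6.96 in the pools. H2-Bl differed by -0.01.

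Class Ib molecules are less variable relatives of classical class I, and some present special ligands to particular T or NK cells. Of 16 class Ib genes, H2-T24 fell and 15 were not called, with a median difference of -0.14. H2-T24 stood at 6.32 and 6.70 in the pools and at 5.86 and 5.69 in the tumours. Both tumours lay below both pools. The difference was -0.73 (SE 0.16, adjusted p = 0.0395), and the call was lost without any 1 array (adjusted p 0.056 to 0.166), with quantile normalization (0.0596) and with the median over genes subtracted (0.0567). H2-M3, which presents N-formylated peptides, stood at 7.10 and 6.93 against 6.66 and 6.81, a difference of -0.27 (95% interval -0.57 to 0.02). H2-Q4 was split between the tumours, at 7.13 in tumour 1 and 7.97 in tumour 2 around pools at 7.45 and 7.70. The 15 uncalled genes lay between -0.30 and 0.02, and 9 of the 16 had a mean signal at or below the lower quartile. The 6 H2-M10 genes, known from vomeronasal neurons, lay between -0.30 and -0.03. Sequence similarity among class Ib genes leaves it uncertain how their signals divide.

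Peptide transport, loading and trimming was the class I step with the most changed genes. Of its 4 genes, Tapbp, Tap2 and Erap1 fell and Tap1 was not called, and in all 4 both tumours lay below both pools. The median difference was -0.92. Without pool 1 or without pool 2, Tap2 alone was called.

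Tapbp encodes tapasin, which bridges TAP and the empty class I molecule. It stood at 9.43 and 9.52 in the pools and at 7.95 and 8.57 in the tumours. Tumour 1 was again the lower. The difference was -1.21 (SE 0.22, adjusted p = 0.0236), a 2.32-fold lower signal. The call was lost without pool 1 (adjusted p = 0.1) and without pool 2 (0.129).

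Tap2 and Tap1 encode the subunits of the TAP transporter, and only Tap2 was called. Tap2 stood at 8.22 and 8.36 in the pools and at 7.14 and 7.10 in the tumours, so the tumours were nearly equal and well below the pools. The difference was -1.17 (SE 0.10, adjusted p = 0.00465), a 2.25-fold lower signal. Tap1 stood at 8.01 and 8.14 in the pools and at 7.38 and 7.78 in the tumours. Its difference of -0.50 (95% interval -0.90 to -0.10) missed the threshold (adjusted p = 0.103), and without tumour 2 it was -0.69 (adjusted p = 0.0398). Whether these subunits differ from each other was not tested.

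Erap1 encodes the aminopeptidase that trims peptides in the endoplasmic reticulum. It stood at 8.79 and 8.68 in the pools and at 8.12 and 8.01 in the tumours. The samples within each group were close. The difference was -0.68 (SE 0.11, adjusted p = 0.0167), and the call was lost without pool 1 (adjusted p = 0.104) and without pool 2 (0.0829).

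The immunoproteasome subunits and the PA28 activator shape the peptides that enter the class I pathway, and none of the 5 was called. Psmb8, which encodes LMP7, showed the widest split between tumours of all 45 genes. It stood at 7.71 and 7.46 in the pools, at 6.34 in tumour 1 and at 7.39 in tumour 2. Tumour 2 lay just below the pools and tumour 1 far below them. The difference was -0.72 (95% interval -1.60 to 0.15). It was -1.25 without tumour 2 (adjusted p = 0.0161) and -0.20 without tumour 1 (adjusted p = 0.461).

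Psmb9, which encodes LMP2 and shares its promoter region with Tap1, stood at 8.00 and 8.13 against 7.74 and 7.94. Psmb10, the third immunoproteasome subunit, stood at 8.55 and 8.38 against 8.30 and 8.64. Their differences were -0.23 (95% interval -0.53 to 0.08) and 0.00 (-0.38 to 0.39), so the groups were close for Psmb9 and overlapped for Psmb10. For the PA28 subunit genes, Psme1 differed by -0.31 (-0.59 to -0.03) and Psme2 by 0.06 (-0.24 to 0.37). Among genes of the constitutive proteasome and its other activators, both tumours lay above both pools in 16 of 17 genes. Their median difference was 0.38 and 0 were called. With the median over genes subtracted, 12 of the 17 were called higher, and without tumour 1, 3 were. Psmb2 (0.56, adjusted p = 0.062) and Psmb4 (0.40, 0.0812) had the highest moderated t of that list.

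Calr, Canx and Pdia3 encode calreticulin, calnexin and ERp57, which fold many glycoproteins beside class I. None was called. Calr stood at 12.26 and 11.93 in the pools and at 12.31 and 12.11 in the tumours, which overlap. Canx stood at 12.68 and 12.65 against 12.61 and 12.54. Pdia3 stood at 12.48 and 12.13 against 12.74 and 12.56, with both tumours above both pools and a difference of 0.34 (95% interval -0.05 to 0.74). Of 14 other chaperone and quality control genes of the endoplasmic reticulum, 0 were called and 10 had positive differences, with Sec61a1 (0.42, adjusted p = 0.0536) and P4hb (0.38, 0.0599) the highest by moderated t. Both were called higher with trended eBayes (adjusted p 0.0263 and 0.0268) and with the median over probe sets (0.0421 and 0.0438) or over genes (0.0192 and 0.023) subtracted, and Sec61a1 with the dim filter (0.0464).

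In the class II pathway, 3 of 4 loading genes fell and 0 of 5 chain genes were called, a contrast that was itself not tested. H2-Ab1, the beta chain of the A molecule, stood at 7.97 and 7.49 in the pools and at 7.39 and 8.28 in the tumours. H2-Aa, its alpha chain, stood at 6.50 and 5.76 against 5.26 and 5.99. H2-Eb1, a beta chain of the E molecule, stood at 7.35 and 7.09 against 6.78 and 7.15. In these 3 genes the groups overlapped, because tumour 2 lay within or above the range of the pools. The differences were 0.10 for H2-Ab1 (95% interval -0.72 to 0.92), -0.51 for H2-Aa (-1.35 to 0.34) and -0.25 for H2-Eb1 (-0.68 to 0.17). H2-Eb2 stood at 5.12 and 5.23 against 5.42 and 5.47, with a mean below the lower quartile of all genes and a difference of 0.27 (0.01 to 0.52). H2-Ea, annotated as a transcribed pseudogene, stood between 4.51 and 4.58 on every array.

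Of the 4 class II loading genes, Cd74, H2-Ob and H2-DMa fell and H2-Oa was not called, and in all 4 both tumours lay below both pools. The median difference was -0.69. Without pool 1 or without pool 2, 0 of the 4 were called.

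Cd74 encodes the invariant chain, which guards the class II groove until the endosome. It stood at 7.11 and 6.54 in the pools and at 5.11 and 5.77 in the tumours. The gap between the groups was wider than that within either. The difference was -1.39 (SE 0.28, adjusted p = 0.0343), a 2.61-fold lower signal. The call was lost without pool 1 (adjusted p = 0.139), pool 2 (0.0672) or tumour 1 (0.0645).

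H2-DMa encodes the alpha chain of the peptide editor H2-DM. It stood at 7.64 and 7.54 in the pools and at 6.97 and 6.99 in the tumours. The difference was -0.61 (SE 0.10, adjusted p = 0.0187). The tumours were almost identical, yet the call was lost without pool 1 (adjusted p = 0.117), without pool 2 (0.0936) and with quantile normalization (0.0511).

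H2-Oa and H2-Ob form H2-DO, which restrains H2-DM. H2-Ob stood at 6.74 and 6.49 in the pools and at 5.80 and 5.87 in the tumours, a difference of -0.78 (SE 0.12, adjusted p = 0.0179). H2-Oa stood at 6.18 and 5.99 against 5.62 and 5.73, a difference of -0.41 (95% interval -0.70 to -0.12, adjusted p = 0.0777). Both subunit genes were lower in each tumour than in each pool. The H2-Ob call was lost without pool 1 (adjusted p = 0.0901) and without pool 2 (0.0515).

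Beside these genes, genes of antigen processing in endosomes were lower in late-onset cells. Of 10 measured genes 9 fell, with a median difference of -1.91. The list held proteases, a reductase and the ubiquitin ligase genes Marchf1, which fell (-1.63), and Marchf8, which was not called (-0.04). Ctss, the cathepsin that degrades the invariant chain, fell from 12.50 and 12.34 to 8.07 and 9.29. Ctsh (-3.17), Ctsz (-2.90) and Ifi30 (-2.18), the thiol reductase, also fell. The call of Ctsh was lost without pool 1 (adjusted p = 0.0612) and without pool 2 (0.0536).

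**Figure D2:**
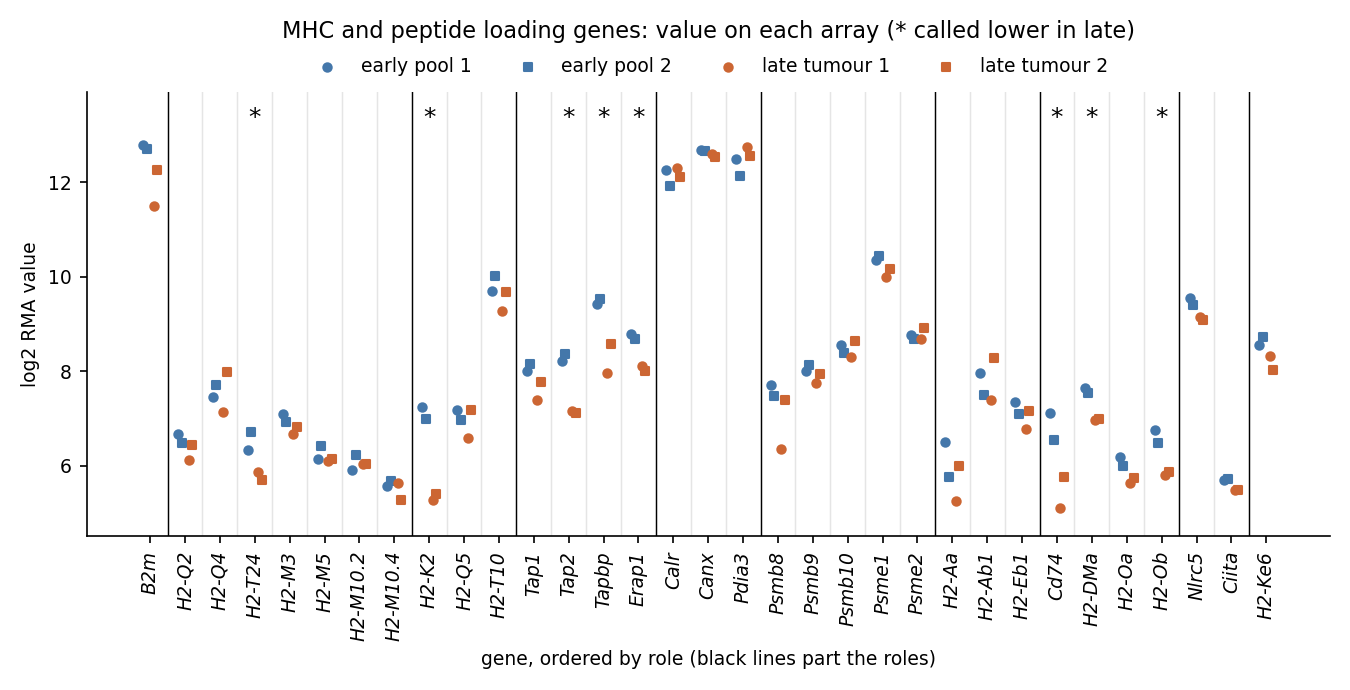
Log2 signal on each of the 4 arrays for the 33 genes whose mean signal lay above the lower quartile of all genes (5.52), by role; an asterisk marks the 8 called genes. In Tap2 the tumours stand at 7.14 and 7.10 under pools at 8.22 and 8.36, while in H2-Ab1 they stand at 7.39 and 8.28 on either side of the pools.

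The transactivators of both pathways were measured and not called. Nlrc5, the activator of class I genes, stood at 9.54 and 9.39 in the pools and at 9.14 and 9.09 in the tumours. Ciita, that of class II genes, stood at 5.70 and 5.72 against 5.48 and 5.49. In both genes the tumours lay below the pools by a small margin, -0.35 for Nlrc5 (95% interval -0.62 to -0.08, adjusted p = 0.0906) and -0.22 for Ciita (-0.46 to 0.02, adjusted p = 0.191). Nlrc5 had 19 probe sets, of which 17 had negative differences, with a median of -0.16 and a range of -0.45 to 0.12.

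Of 7 genes for RFX and NF-Y, which bind the X and Y boxes, and for CREB1, Rfx5 fell and 0 rose. Rfx5 stood at 8.50 and 8.40 in the pools and at 7.94 and 7.75 in the tumours, a difference of -0.60 (adjusted p = 0.0282). The call was lost without pool 1 (adjusted p = 0.154), pool 2 (0.122) or tumour 2 (0.0757), and with the median over genes subtracted (0.0668). Of 18 measured genes of interferon gamma signalling, 3 fell and 1 rose, with a median of -0.08. Gbp5, an interferon-induced GTPase, fell by 1.02, Cd274, which encodes PD-L1, by 0.97 and Jak1 by 0.46, and the feedback inhibitor Socs3 rose by 0.56. Gbp5 lost its call without pool 1 (adjusted p = 0.0591), Cd274 without pool 1 (0.105), tumour 1 (0.108) or tumour 2 (0.0818), Jak1 without any 1 array (0.0726 to 0.241), and Socs3 without pool 1 (0.152), pool 2 (0.144) or tumour 2 (0.078). Cd274 also lost its call with quantile normalization (adjusted p = 0.0817) and with the median over genes subtracted (0.0574). Jak1 lost its call with the median over probe sets (0.0707) or over genes (0.0957) subtracted. With the replicate block the calls of Cd274 (0.0849), Jak1 (0.0765) and Socs3 (0.0584) were lost. Of 4 NF-kB subunit genes 0 were called. Rel stood at 9.43 and 9.05 against 6.85 and 8.29 (adjusted p = 0.0772, and 0.00653 without tumour 2 and 0.0444 without tumour 1), and Relb differed by 0.41 (adjusted p = 0.0864, and 0.029 with the median over genes subtracted).

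H2-Ke6, which has an H2- symbol from its place in the MHC but encodes a steroid dehydrogenase, stood at 8.55 and 8.72 against 8.33 and 8.03. Its difference of -0.46 (95% interval -0.81 to -0.10) missed the threshold (adjusted p = 0.0954).

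The late-onset tumours differed from each other in a part of these genes. In 8 of the 45 the signal was higher by over 0.5 in tumour 2, a share of 17.8% against 3.89% of all genes, and in 1, the dim H2-M1, it was higher by that much in tumour 1. The 8 were Psmb8 (1.05), H2-Ab1 (0.89), H2-Q4 (0.84), B2m (0.77), H2-Aa (0.73), Cd74 (0.66), Tapbp (0.62) and H2-Q5 (0.58). Of the 45, 28 (62.2%) were higher in tumour 2, against 50.5% of all genes. All 5 class II chain genes, all 5 immunoproteasome and PA28 genes, all 4 class II loading genes and all 4 class I pseudogenes were higher in tumour 2. Of the ER folding genes 0 of 3 were, of the class Ib genes 6 of 16, and of the H2-M10 genes among these 1 of 6. Some of the differences counted here were near 0, such as H2-Ea (0.01), H2-DMa (0.01), H2-Bl (0.04) and H2-Eb2 (0.05). For class II loading the median was 0.09 between the tumours, while all 4 genes were lower in pool 2 than in pool 1 (median -0.22). Tap2, Erap1, H2-DMa and H2-K2 differed between the tumours by 0.12 or less. The median absolute difference was 0.189 between the tumours and 0.165 between the pools, against 0.139 and 0.116 over all genes.

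Other lists also leaned to 1 of the tumours, in both directions, and the largest medians were toward tumour 2. Higher in tumour 2 were 19 of 23 microglia and macrophage markers (median 0.62), 9 of 9 endothelial markers (0.58), 9 of 10 endosomal processing genes (0.40), 17 of 17 constitutive proteasome genes (0.25) and 16 of 18 interferon gamma signalling genes. The interferon list had a median of 0.11 and a median absolute difference of 0.114, against 0.002 and 0.139 over all genes. Fewer were higher in tumour 2 among B cell markers (0 of 7, median -0.15), T and NK cell markers (4 of 14, -0.11) and ER chaperones (5 of 14, -0.17). The same held for the RFX, NF-Y and CREB1 genes (2 of 7, -0.09) and co-stimulation genes (2 of 6, -0.05). Among the co-stimulation genes, however, Cd80 was 2.02 higher in tumour 2. The pools also leaned, with fewer genes higher in pool 2 among endothelial markers (0 of 9, median -0.69) and ER chaperones (3 of 14, -0.28). Microglia and macrophage markers did so too (2 of 23, -0.25), while 10 of 18 interferon gamma signalling genes were higher in pool 2. The median absolute difference between the pools was 0.689 (endothelial), 0.285 (ER chaperones) and 0.246 (microglia and macrophages). Between the tumours it was 0.582, 0.195 and 0.770. With 1 tumour on each side there is no test of the tumour split, and the part of any of these lists in it was not tested.

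**Figure D3:**
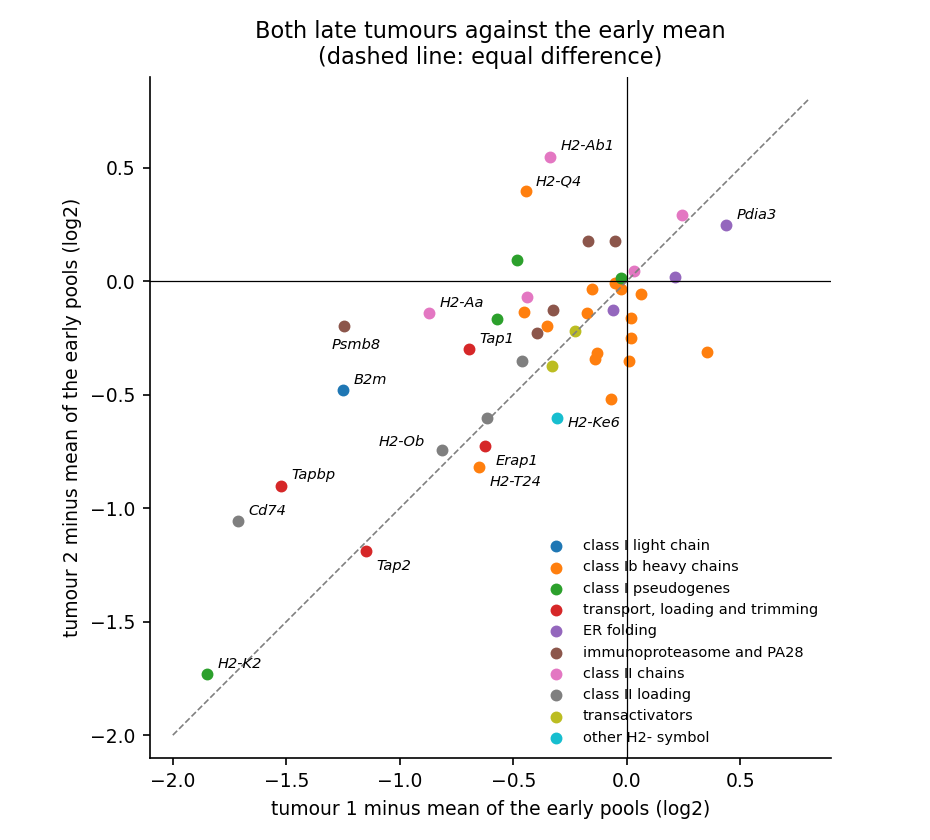
Each point is 1 of the 45 genes, with tumour 1 minus the mean of the pools on the horizontal axis and tumour 2 minus the same mean on the vertical axis (log2), coloured by role; the dashed line marks equal differences. Psmb8, B2m, Tapbp, Cd74, H2-Aa, H2-Ab1 and H2-Q4 lie above the line, while Tap2 and H2-K2 lie close to it.

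Markers of other cell types that a sort on EGFP could hold were measured too. Of 9 dendritic cell markers Itgax (-2.91) and Siglech (-0.93) fell. Macrophages also express Itgax, and whether the Siglech signal came from dendritic cells was not tested. The 7 uncalled markers of this list had differences from -0.19 for Zbtb46 to 0.24 for Xcr1. The summed linear signal was 1192.67 and 832.112 in the pools against 522.074 and 535.374 in the tumours. Itgax was the brightest gene of this sum in the pools, at 9.35 and 8.11 against 6.03 and 5.61 in the tumours. Of 7 B cell markers Blnk (-2.59) and Cd22 (-1.05) fell, with sums of 648.939 and 562.453 against 316.532 and 289.553. A linear sum weighs its brightest genes most, and Blnk was the brightest of this list in the pools. So neither the dendritic nor the B cell sum stands for a number of cells. Blnk, which myeloid cells also express, stood at 8.16 and 7.88 against 5.48 and 5.39. Cd79b (-0.43), Ms4a1 (-0.30), Blk (-0.09), Cd79a (0.01) and Pax5 (0.11) were not called. In 5 of the 7 B cell markers both tumours lay below both pools, against 30.4% of all genes. Of 14 T and NK cell markers Cd4 fell (-0.44), and the sums lay between 516.775 and 543.734 on all arrays. Only 3 of the 14 had a mean signal above the lower quartile of all genes (5.52), and Cd4 was not among them. Sums of such dim signals cannot show whether these cells were equally present. Of 9 endothelial markers Slco1a4 fell (-1.44), with sums of 1168.8 and 724.038 against 572.894 and 1005.95. Of the 7 glial progenitor markers Pdgfra fell (-0.45), with sums of 36317.5 and 37557.6 against 31385.4 and 30978.6. Without pool 1 the calls of Siglech, Cd22, Cd4, Slco1a4 and Pdgfra were lost, and without pool 2 those of Siglech, Cd4, Slco1a4 and Pdgfra. Cd4 and Pdgfra also lost theirs without tumour 1 and without tumour 2, and with either median subtraction or quantile normalization. The part of any of these cell types in the differences of the MHC genes was not tested.

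The position of the genes was then compared with their differences. Of the 45, 34 lie on chromosome 17 in RefSeq, with a median difference of -0.23. Of these 34, 6 fell, against 8.12% of all genes, and 18 had both tumours below both pools, against 30.4%. Between Tapbp and H2-M2, the outermost of them in the RefSeq order, 123 other protein-coding genes were measured. The median difference of these neighbours was 0.00. Both tumours lay below both pools in 31 and above in 36, against 30.4% and 28.5% of all genes. Of the neighbours 7 fell and 11 rose, against 8.12% and 6.59% of all genes. Without pool 1 the counts were 5 and 2, without pool 2 they were 4 and 2, and without tumour 2 the second was 7. The neighbours with the greatest changes were Tnf (-3.87), Aif1 (-3.22), which is itself a macrophage marker, Gabbr1 (-1.37) and D17H6S56E-5 (1.24). The last lost its call without pool 1 (adjusted p = 0.0654) and without pool 2 (0.0712). In the class II stretch H2-DMa fell, the next genes in the order, Psmb9, Tap1 and Psmb8, were not called, Tap2 and H2-Ob after them fell, and the 5 class II chain genes that follow were not called.

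**Figure D4:**
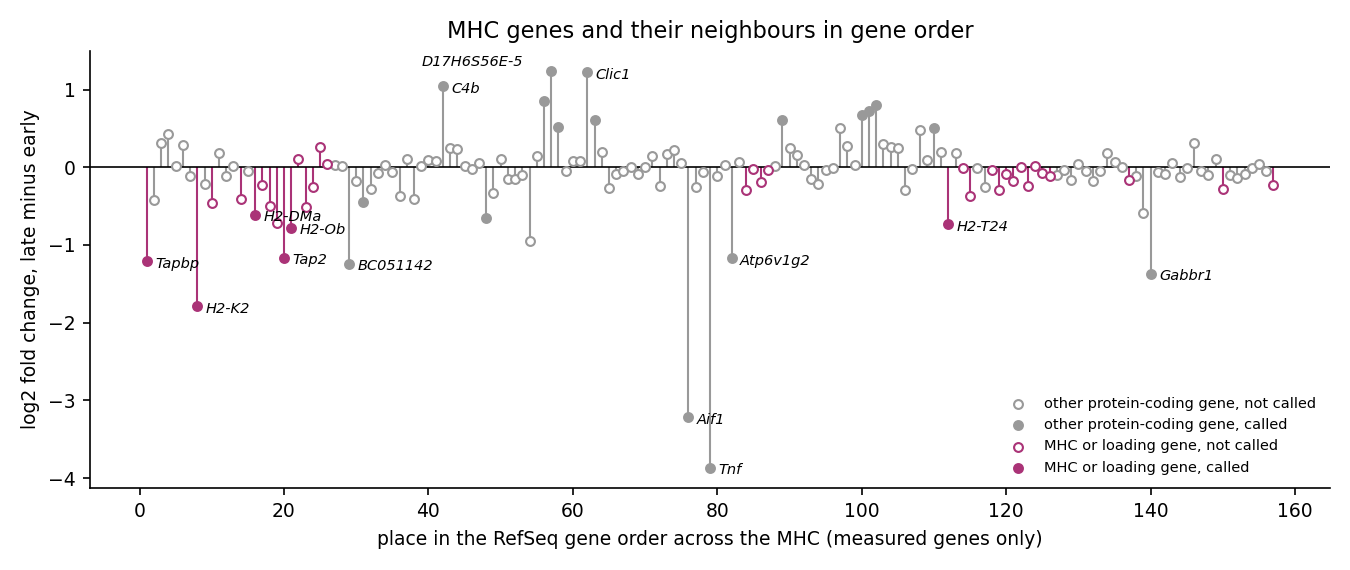
Log2 difference, late minus early, of measured genes across the MHC, placed by their rank in the RefSeq order from Tapbp to H2-M2; magenta marks the genes studied here, grey their protein-coding neighbours, and filled points were called. Tapbp, H2-K2, H2-DMa, Tap2, H2-Ob and H2-T24 are filled and negative, and Tnf (-3.87) the lowest neighbour.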

How the data were processed

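RNA from 4 samples, extracted with Trizol and RNeasy and labelled with biotin, was hybridised to Affymetrix mouse arrays, per the labels' protocols. The authors deposited a log2 signal for each probe set. The submitters' processing notes name RMA and affy 3.4.2, and parameters are not given in the sources used here. RMA scales arrays to a shared distribution and understates the fold change of dim genes. Medians over 34760 probe sets lay between 6.63 and 6.71. The number of arrays limits the precision.

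Only the 21640 probe sets with 1 gene symbol in the platform annotation were used. Those with several (1321) or no symbol (11799) were left out. All 45 genes matched RefSeq by Entrez identifier. The groups were fitted in limma 3.58.1 (R 4.3.3, lmFit and eBayes, 2 residual and 3.27 prior degrees of freedom, tested on simulated data), without filter, with Benjamini-Hochberg adjustment over 19937 genes. All adjusted p-values are from limma. With 2 against 2, an exact permutation test could not reach the threshold. From each other list, up to 4 called genes were named by absolute difference, or 2 by moderated t where none was called. The genes and lists were chosen with earlier results of these data known. Alternatives covered the variance model, scaling, a dim filter, averaging probe sets, a replicate block and leaving out each array. Promoters are RefSeq sequences of GRCm38.p6, and the array files name no build.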

Additional observations from a re-analysis of the deposited data

How the results depend on the processing

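Over 13 settings the median of the 45 genes stayed between -0.33 and -0.07, and no gene called in the main setting changed sign. The count of the 45 called lower was 6 to 8 under other variance models, scalings, the dim filter and averaged probe sets, 5 with the replicate block, and 2 to 10 when 1 array was left out, the lone sample of a group being assumed to vary like the other group. The count called higher was 1 with the median over genes subtracted. Over all genes, leaving out 1 array gave 559 to 1365 lower and 291 to 1212 higher, subtracting the median over genes gave 2839 higher, and the replicate block gave 744 higher. The block ended the calls of Cd74 (adjusted p = 0.0887), H2-T24 (0.0868) and H2-DMa (0.051). No label pairs a pool with a tumour, so the block follows the sample numbers and not a known pairing of animals. Deviations of same-numbered samples correlated at -0.04 across genes. With 2 samples per group this value cannot settle whether they were paired.

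Differences that changed sign were all uncalled. With 1 array left out they ranged from -0.45 to 0.40 for H2-Q4, -0.13 to 0.068 for H2-Q10, -0.31 to 0.35 for H2-M1, -0.058 to 0.062 for H2-M11, -0.19 to 0.13 for H2-M10.2, -0.35 to 0.0092 for H2-M10.4, -0.16 to 0.018 for H2-M10.5, -0.31 to 0.077 for H2-M10.6, -0.48 to 0.094 for H2-Q5, -0.030 to 0.019 for H2-Bl, -0.053 to 0.28 for Calr, -0.17 to 0.18 for Psmb10, -0.050 to 0.18 for Psme2 and -0.34 to 0.55 for H2-Ab1. With the median over genes subtracted, the difference was 0.13 for H2-Q4, 0.13 for H2-Q10, 0.0013 for H2-M5, 0.13 for H2-M10.2, 0.066 for H2-M10.3, 0.087 for H2-M10.5, 0.044 for H2-M10.6, 0.15 for H2-Bl and 0.066 for Canx. With the median over probe sets subtracted, the difference was 0.033 for H2-Q4, 0.026 for H2-Q10, 0.028 for H2-M10.2 and 0.052 for H2-Bl. With quantile normalization, the difference was 0.10 for H2-Q4, 0.025 for H2-Q10, 0.10 for H2-M10.2 and 0.052 for H2-Bl. Beyond the scaling itself, the cause was not tested. Subtracting the median over genes was added after the data had been seen. RMA understates fold changes of dim genes, which bears on the 12 genes at or below the lower quartile.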

Other observations

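Class I-like and co-stimulatory genes outside the H2 symbols, from lists chosen with earlier results known, changed in both directions. Of 6 measured class I-like genes, Hfe, which controls iron uptake, and Mr1, which presents vitamin metabolites to MAIT cells, fell, and Cd1d1, which presents lipids to NKT cells, rose. Hfe stood at 7.64 and 7.42 in the pools and at 6.44 and 6.58 in the tumours (-1.02, limma adjusted p = 0.0089). Mr1 stood at 7.76 and 7.78 against 6.94 and 6.81 (-0.90, 0.00761), and Cd1d1 at 6.52 and 6.63 against 7.40 and 7.23 (0.74, 0.0153). All 3 calls were lost without pool 1 (adjusted p 0.0528 to 0.0961), and those of Mr1 (0.058) and Cd1d1 (0.0798) without pool 2. Of 6 co-stimulation genes, Cd86 (-3.11), Cd83 (-1.68) and Icam1 (-1.02) fell. Cd86, a ligand of CD28 on T cells, stood at 8.14 and 7.80 against 4.93 and 4.78. Icam1 lost its call without pool 1 (adjusted p = 0.116) and without pool 2 (0.0722).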
